A study of Mus musculus with 14 samples.

Results

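This account follows the genes for dyneins, tubulins, tektins and intraflagellar transport in whole mouse testis of Glis3KO2 and WT animals. Members were the non-control probes whose gene name on the array begins with Dnah, Dnai, Dnal, Dync or Dynl, with a tubulin letter class, Tekt or Ift followed by a number. The rule found 122 of 41174 probes, which stand for 58 of 27962 gene names, and the brightest probe of each name was used. They comprise 18 axonemal members (10 dynein heavy chains, 4 intermediate or light chains and 4 tektins), 12 subunits of dynein 2 and intraflagellar transport (IFT), 5 subunits of cytoplasmic dynein 1, 6 dynein light chains shared between motors, and 17 tubulins. Names are those of the array, which are older, and current symbols are given where they differ.

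The testes came from C57BL/6 mice, and Glis3KO2 is the label of the line in which Glis3, a zinc finger transcription factor, was disrupted. There were 3 Glis3KO2 and 3 WT samples at 4 weeks and 4 Glis3KO2 and 4 WT samples at 1 week, each on 1 single-colour Agilent array. For the older animals 4 weeks is the age on the samples and 3 weeks that in the series text, and the age on the samples is used here. They do not say that samples are separate animals, so the p-values measure the spread between these samples. The labels used here give no details of the allele.

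Dyneins are microtubule motors built around a heavy chain. Axonemal dyneins form the outer and inner arms that bend the flagellum of sperm and the motile cilium, and tektins are filament proteins inside its microtubules. Cytoplasmic dynein 1 carries cargo in nearly all cells, dynein 2 returns IFT trains from the tip of a cilium, and IFT proteins carry building material while a cilium or a sperm flagellum grows. Alpha- and beta-tubulin polymerise into microtubules, gamma-tubulin nucleates them, and delta- and epsilon-tubulin belong to centrioles. In the mouse testis the sperm axoneme is built after meiosis, in spermatids, while Sertoli cells rely on cytoplasmic microtubules.

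Signals are given as log2 of the background-corrected intensity minus the 75th percentile of the array, so that 0 is the 75th percentile of its probes. A gene entered the test if, in some group, 3 or more arrays flagged its probe as well above background, and it was called at a limma adjusted p (Benjamini-Hochberg, over all genes tested) under 0.05. The share of spots flagged as well above background ranged from 74.3% to 86.6% between arrays. All 7 Sertoli, all 5 Leydig and all 4 pan germ cell markers examined were well above background on all 14 arrays. The Glis3 probe lay between -9.25 and -7.30 on the 1-week Glis3KO2 arrays, none of them above background, against -5.05 to -4.71 on the 1-week WT arrays. At 4 weeks this probe was not well above background on any array (-8.28 to -6.67 in Glis3KO2, -7.22 to -6.58 in WT), so it does not check those labels. Arrays of the ages lie on different slides, and age and slide cannot be told apart. The 4-week Glis3KO2 replicate 3 was on slide 5 with WT replicate 2, and the other 4-week arrays were on slide 4. The 1-week Glis3KO2 replicate 4 was alone on slide 3 and was scanned on another day than the other 1-week arrays.

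The first comparison asks which members differ between the genotypes at 4 weeks. In Glis3KO2 testes 38 of the 56 members tested were lower and 11 were higher, while 34.1% of all genes tested were lower and 35.1% were higher (69.2% in either direction). The members split by role. Of 18 axonemal members 14 fell and none rose, all 12 dynein 2 and IFT members fell, and the tubulins divided into 7 lower, 7 higher and 3 not called. Cytoplasmic dynein 1 had 1 lower, 2 higher and 2 not called. In RNA from whole testis, fewer cells of a type and less RNA per cell cannot be told apart.

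Axonemal heavy chains held the largest falls among the dyneins. The outer arm heavy chain Dnahc8 (Dnah8) had log2 signals of 2.25, 2.52 and 4.12 on the Glis3KO2 arrays, against 5.53, 5.36 and 5.56 on the WT arrays. It was 5.74-fold lower (log2 -2.52, SE 0.47, adjusted p = 0.00304). All 3 Glis3KO2 arrays lay below all WT arrays, and replicate 3 was the highest of them. Dnahc6 (Dnah6), an inner arm heavy chain, was at -2.41, -2.42 and -0.83 in Glis3KO2 and at 0.81, 0.67 and 0.94 in WT, a 6.48-fold fall (log2 -2.69, SE 0.43, adjusted p = 0.00178). Inner arm chains Dnahc12 (Dnah12) and Dnahc10 (Dnah10) fell by 2.25 and 2.24 on the log2 scale. The brightest Dnahc12 probe is placed on chromosome 1 and the Dnah12 promoter on chromosome 14. Its values may therefore be those of another gene. Dnahc12 was at 0.04, 0.38 and 1.73 in Glis3KO2, against 3.03, 2.88 and 3.00 in WT. Dnahc10 was at -3.93, -3.81 and -2.32 in Glis3KO2, against -1.13, -1.26 and -0.96 in WT. Neither gene's groups overlapped.

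On their brightest probes the other heavy chains did not all follow. Dnahc1, Dnahc2 and Dnahc9 fell, with log2 differences of -1.93, -2.25 and -1.65. Dnahc3 (-0.64, adjusted p = 0.227) was not called on its brightest probe. Its probe 2, well above background on 1 Glis3KO2 and 3 WT arrays, fell by 2.15 (adjusted p = 0.0075 over all probes). Dnahc9 probe 2 was not called, with a difference of -0.01 (adjusted p = 0.961). Dnahc11 (Dnah11), an outer arm chain known from motile cilia of the airway and the embryonic node, was at -4.98, -6.27 and -6.66 in Glis3KO2, against -6.73, -6.29 and -6.48 in WT (log2 0.53, SE 0.42, adjusted p = 0.303). Its groups overlapped, 1 WT array was not well above background, and the highest value was that of Glis3KO2 replicate 1. The brightest probe of Dnahc5 was well above background on 2 arrays of each genotype and was not tested, while its probe 3, above background on 1 Glis3KO2 and 3 WT arrays, fell by 2.43 (adjusted p = 0.00796 over all probes).

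Intermediate and light chains of the axonemal arms moved as the heavy chains did. Dnali1, a light intermediate chain of inner arms, had signals of 2.06, 1.95 and 3.40 in Glis3KO2 and of 4.76, 5.07 and 4.93 in WT, a 5.46-fold difference (log2 -2.45, SE 0.39, adjusted p = 0.00172). Dnaic1 (Dnai1), an intermediate chain of outer arms, was at 0.24, 0.33 and 1.73 in Glis3KO2 and at 2.84, 2.88 and 2.90 in WT (4.32-fold lower, adjusted p = 0.00302). The groups of both genes were separate. Dnalc4 (Dnal4), an outer arm light chain, fell by 1.34. Dnai2, an outer arm intermediate chain, was not well above background on any 4-week array.

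All 4 tektins fell, within a narrow range of log2 differences from -2.35 (Tekt3) to -1.95 (Tekt1). Tekt1 had signals of 4.17, 4.44 and 5.72 in Glis3KO2, against 6.60, 6.86 and 6.71 in WT (3.86-fold, adjusted p = 0.00411). Tekt2 was at 3.07, 3.24 and 4.61 in Glis3KO2 and at 5.72, 5.83 and 5.81 in WT (4.43-fold, adjusted p = 0.00296). Tekt3 was at -1.93, -1.79 and -0.33 in Glis3KO2 and at 0.97, 0.89 and 1.14 in WT (5.11-fold, adjusted p = 0.00254). In each of the 3 the WT arrays lay close together while the Glis3KO2 arrays spread over more than a log2 unit. The median log2 difference of the 18 axonemal members, untested ones included, was -2.08, against -0.10 over all genes of the array.

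All 12 dynein 2 and IFT members fell, by less than the axonemal group at the median (-1.70). Ift172, a peripheral member of IFT complex B, was at 3.78, 3.83 and 4.87 in Glis3KO2 and at 5.98, 6.23 and 6.06 in WT, 3.80-fold lower (log2 -1.93, SE 0.31, adjusted p = 0.00176). Ift74, of the core of complex B, had signals of 0.93, 0.97 and 1.77 in Glis3KO2, against 3.13, 3.04 and 3.15 in WT (3.68-fold lower, adjusted p = 0.00102). Dync2h1, the heavy chain of dynein 2, differed by -1.78 and its light intermediate chain Dync2li1 by -1.09. Complex A members Ift140 and Ift122 differed by -1.78 and -1.61. The smallest falls of the group were those of the complex B members Ift20 and Ift52, both -0.54, with adjusted p = 0.0238 and 0.00934.

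Light chains that several motors share split in direction, and the roadblock pair stood on opposite sides. Dynlrb2 was at 2.61, 2.70 and 4.04 in Glis3KO2, against 5.17, 5.19 and 5.27 in WT, a 4.27-fold fall (log2 -2.10, SE 0.38, adjusted p = 0.00272). Its paralog Dynlrb1 was at 2.95, 2.99 and 2.30 in Glis3KO2, against 1.21, 0.93 and 1.14 in WT, a 3.15-fold rise (log2 1.65, SE 0.22, adjusted p = 0.00108). Both groups of arrays were separate for both genes, and Glis3KO2 replicate 3 was the array nearest to WT in each. Dynll1 and Dynlt1 (Dynlt1b) fell by 1.28 and 0.82. Dynll2 (-1.51) and Dynlt3 (1.62) were called on their brightest probes, but other probes of these genes went the opposite way, as given below with the probes.

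Subunits of cytoplasmic dynein 1 did not move together. Its heavy chain Dync1h1 fell to 3.79, 3.70 and 4.03 in Glis3KO2, against 4.58, 4.59 and 4.67 in WT (1.71-fold, SE 0.15 on the log2 scale, adjusted p = 0.00331). Dync1i1, an intermediate chain, was at 2.69, 2.91 and 2.34 in Glis3KO2 and at 1.15, 1.07 and 1.18 in WT, 2.85-fold higher (log2 1.51, SE 0.18, adjusted p = 0.000822). The light intermediate chain Dync1li1 was at -2.07, -1.81 and -2.23 in Glis3KO2, against -2.77, -2.99 and -2.32 in WT (log2 0.66, adjusted p = 0.0319). These 3 genes had separate groups, although for Dync1li1 the gap between the nearest arrays was small. The intermediate chain Dync1i2 was at 3.49, 3.85 and 3.83 in Glis3KO2 and at 3.97, 3.74 and 4.01 in WT, with overlap (log2 -0.18, adjusted p = 0.356). Its probe 2 was lower (log2 -0.97, adjusted p = 0.00425 over all probes), and with the mean of all probes Dync1i2 was called lower (-0.58, adjusted p = 0.0252). Dync1li2 had a log2 difference of 0.38 (adjusted p = 0.0535). The median difference of the 5 subunits was 0.38, and the call of Dync1li1 was lost in 8 of 18 alternative settings.

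**Figure D1:**
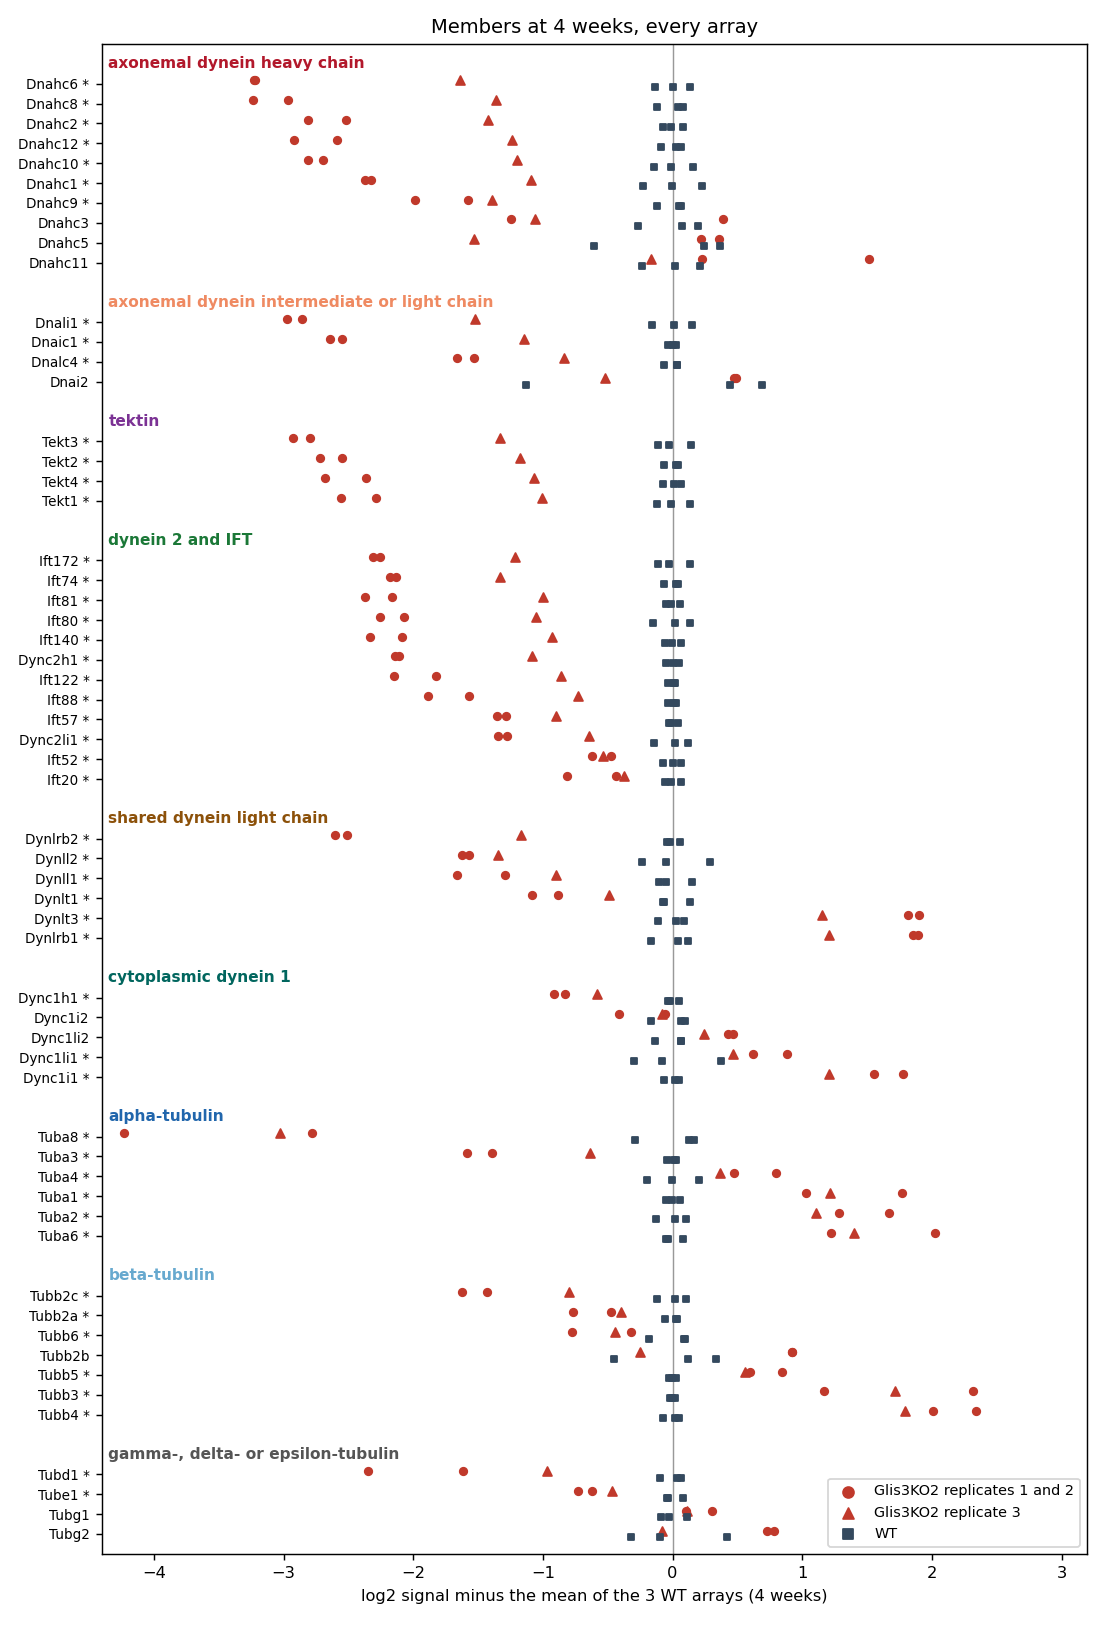
Signal of each of the 58 members on every 4-week array, as log2 signal minus the mean of the 3 WT arrays (horizontal axis), grouped by role. Circles are Glis3KO2 replicates 1 and 2, triangles Glis3KO2 replicate 3, squares WT, and an asterisk marks members called at an adjusted p under 0.05. The called axonemal, tektin, dynein 2 and IFT rows lie to the left of 0, with replicate 3 nearest to WT in most, Dnahc3, Dnahc5, Dnahc11 and Dnai2 have points on both sides, and tubulins and cytoplasmic dynein 1 lie on both sides.

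The size of the fall differed between Glis3KO2 arrays. Relative to the WT mean, the median of the 18 axonemal members was -2.66, -2.44 and -1.19 on Glis3KO2 replicates 1, 2 and 3, and that of the 12 dynein 2 and IFT members was -2.13, -1.95 and -0.91. Compared only with WT arrays of its own slide, the axonemal median was -2.54 on slide 4 (2 Glis3KO2 and 2 WT arrays) and -1.18 on slide 5 (1 of each). None of the 49 called members had overlapping arrays, and all 49 had the same direction on both slides. These counts come from the same arrays that made the calls, so they are no separate check of them. The same counts over all called genes are not given here, so 49 of 49 is not read as a trait of the members. Whether slide or sample moves replicate 3 was not tested.

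Alpha-tubulins divided by isotype. Tuba8 showed the largest fall of all members at 4 weeks, with signals of -0.69, -2.13 and -0.93 in Glis3KO2, against 1.81, 2.22 and 2.26 in WT. The difference was 10.2-fold (log2 -3.35, SE 0.38, adjusted p = 0.000738), and here replicate 1, not replicate 3, was nearest to WT. Tuba3 (Tuba3a), an isotype known from testis, was at 5.87, 6.07 and 6.83 in Glis3KO2, against 7.42, 7.49 and 7.47 in WT (2.30-fold lower, adjusted p = 0.00526). The broadly used isotypes rose. Tuba6 (Tuba1c) was at 5.05, 5.86 and 5.23 in Glis3KO2 and at 3.78, 3.91 and 3.80 in WT (2.92-fold, log2 1.55, SE 0.23, adjusted p = 0.00139). Tuba2 (Tuba1b) was at 3.24, 3.62 and 3.06 in Glis3KO2 and at 1.97, 1.83 and 2.05 in WT (2.56-fold, adjusted p = 0.00115). Tuba1 (Tuba1a) rose by 1.34 and Tuba4 (Tuba4a) by 0.55, the last with other probes against it.

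Alpha-tubulin genes are alike in sequence, so the probes decide how far isotypes can be separated. The brightest probes of the pair that fell are shown with capitals at the 34 of 45 overlapping bases that they share, and below them is the probe of Tubb2a, whose accessions in the scanner files name 4 genes. Positions are those of the files (mm7), where the strand is read from the order of the coordinates.
Tuba3 probe, chr6:125307391-125307450, minus strand: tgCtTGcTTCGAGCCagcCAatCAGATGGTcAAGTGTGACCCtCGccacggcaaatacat
Tuba8 probe, chr6:121248523-121248582, plus strand: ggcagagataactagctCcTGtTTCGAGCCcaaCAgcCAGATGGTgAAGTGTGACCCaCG
Tubb2a probe, chr13:33492088-33492147, minus strand: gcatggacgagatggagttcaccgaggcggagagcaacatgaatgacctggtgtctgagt
The longest run shared by the Tuba3 and Tuba8 probes was 11 bases. Among 300 pairs of the 25 tubulin probes, 1 pair shared a run of at least 12 bases. Probes were compared only with each other, so this does not show whether a probe detects RNA of another isotype. The probe of Tuba2 carries accessions of 3 alpha-tubulin genes, Tuba1a and Tuba1c among them, so the rises of Tuba1, Tuba2 and Tuba6 may not be separate measurements. The Tuba3 probe is assigned to Tuba3a and Tuba3b, and the Tubb2a probe to Tubb2a, Tubb2b, Tubb3 and Tubb6, so these values may hold RNA of more than the named gene.

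Beta-tubulins also divided. Tubb4 (Tubb4a) showed the largest rise of all members, at 2.23, 2.57 and 2.01 in Glis3KO2 and at 0.25, 0.27 and 0.15 in WT (4.13-fold, log2 2.05, SE 0.18, adjusted p = 0.000547). Tubb3, an isotype known from neurons and also made by Sertoli cells, was at 2.18, 3.33 and 2.73 in Glis3KO2, against 0.99, 1.01 and 1.03 in WT (3.33-fold, log2 1.73, SE 0.29, adjusted p = 0.00196). For both the 3 Glis3KO2 arrays lay above all WT arrays. Tubb2c (Tubb4b), an isotype of ciliary axonemes, went the other way, at 2.45, 2.64 and 3.28 in Glis3KO2 and at 4.09, 3.95 and 4.18 in WT (2.44-fold lower, adjusted p = 0.00281). Tubb5 rose by 0.67 and Tubb6 fell by 0.51, while Tubb2b (0.53, adjusted p = 0.244) was not called. Tubb2a was at 5.34, 5.64 and 5.71 in Glis3KO2 and at 6.05, 6.14 and 6.15 in WT, a log2 difference of -0.55 (adjusted p = 0.0167) on the probe that 4 genes share.

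Among the remaining tubulins, those of centrioles fell and those that nucleate microtubules were not called. Tubd1 (delta) was at 0.96, 1.69 and 2.34 in Glis3KO2 and at 3.22, 3.37 and 3.34 in WT (3.13-fold lower, adjusted p = 0.00419). Tube1 (epsilon) was at -1.21, -1.32 and -1.06 in Glis3KO2 and at -0.51, -0.63 and -0.63 in WT (1.52-fold lower, adjusted p = 0.00786). Tubg1 and Tubg2 (gamma) had log2 differences of 0.17 (adjusted p = 0.314) and 0.47 (adjusted p = 0.201), with overlapping arrays. Tubg1 was at 1.15, 1.35 and 1.16 in Glis3KO2 and at 0.96, 1.16 and 1.02 in WT. Tubg2 was at -4.10, -4.04 and -4.91 in Glis3KO2 and at -5.15, -4.41 and -4.92 in WT.

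**Figure D2:**
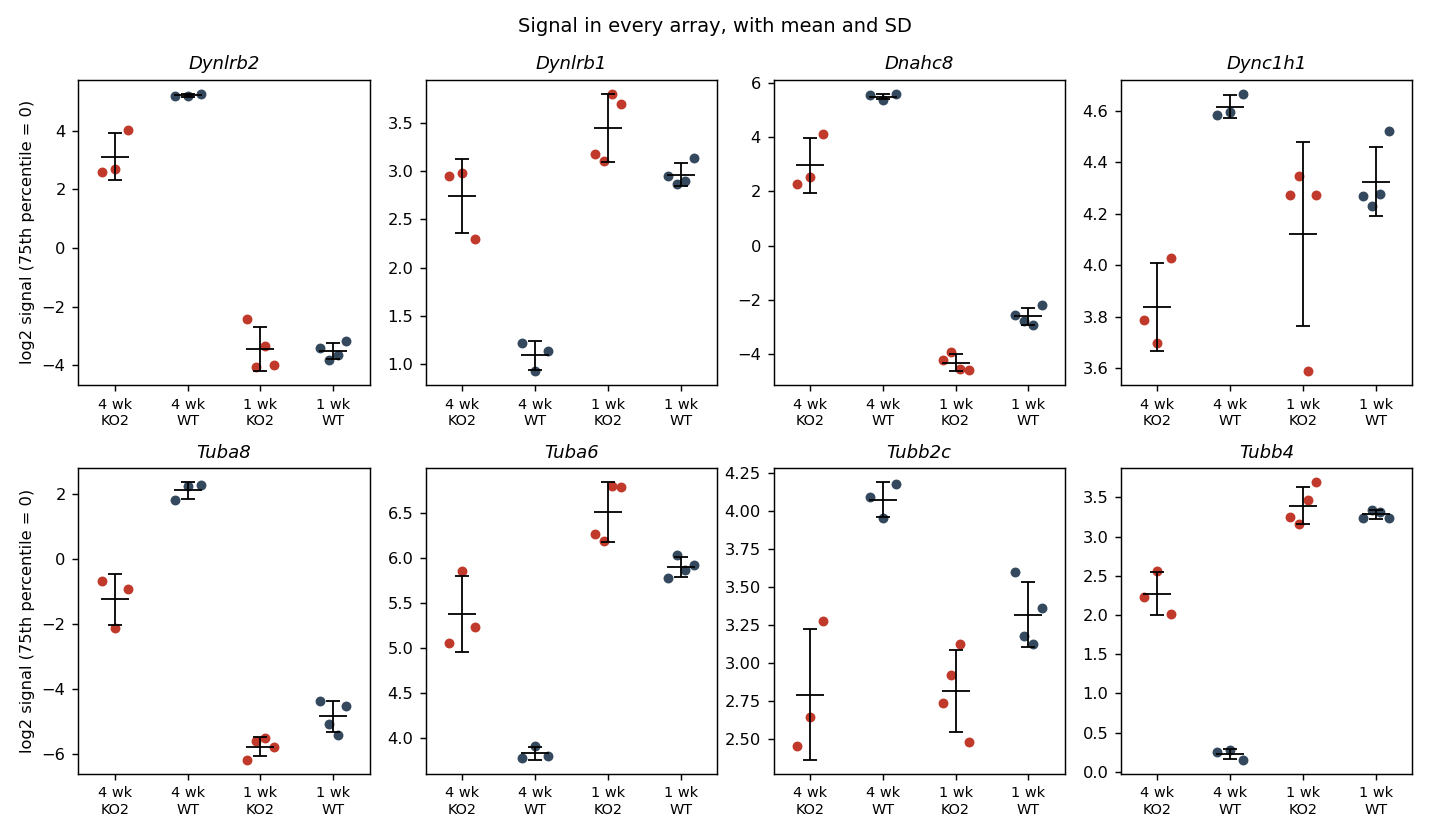
Log2 signal of 8 members on every array (points), with mean and SD (bars), for 4-week Glis3KO2, 4-week WT, 1-week Glis3KO2 and 1-week WT. The vertical scale differs between panels. At 4 weeks Dynlrb2, Dnahc8, Dync1h1, Tuba8 and Tubb2c lie lower in Glis3KO2 than in WT, and Dynlrb1, Tuba6 and Tubb4 lie higher.

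Of the 58 members 33 have more than 1 probe, and 64 probes other than the brightest were compared. At 4 weeks 51 of them were tested, 33 of which were called in the direction of a called brightest probe and 7 in the opposite direction. A further 5 were not called where the brightest probe was, and 6 belong to genes whose brightest probe was not called. All 4 probes of Dnahc12 fell (log2 -3.16 to -2.25), although the files place probes 1 and 2 on chromosome 1 and probes 3 and 4 on chromosome 14. Only probes 3 and 4 lie on the chromosome of the Dnah12 promoter, and probe 1 is the brightest. At 1 week probe 3 had a log2 difference of -1.54 (adjusted p = 0.111 over all probes), against 0.06 for probe 1. The 7 opposing probes belong to 4 genes. For Dynll2 the brightest probe gave -1.51 (SE 0.19) and the others 1.28 and 1.43, and for Dynlt3 the values were 1.62 (SE 0.23) and -2.46. For Tuba4 the brightest probe gave 0.55 (SE 0.18) and the others -1.59 and -1.18, and for Tubb2a the values were -0.55 (SE 0.16), 0.52 and 1.30. Dync1li2, whose brightest probe was not called, had other probes at -0.17, -1.78 and -1.51, the last pair called lower. A direction for these 5 genes therefore holds only for a probe, and with the mean of all probes Dynll2 (0.40), Dynlt3 (-0.42) and Tubb2a (0.42) had the opposite sign. Which transcripts these probes detect was not tested.

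**Figure D3:**
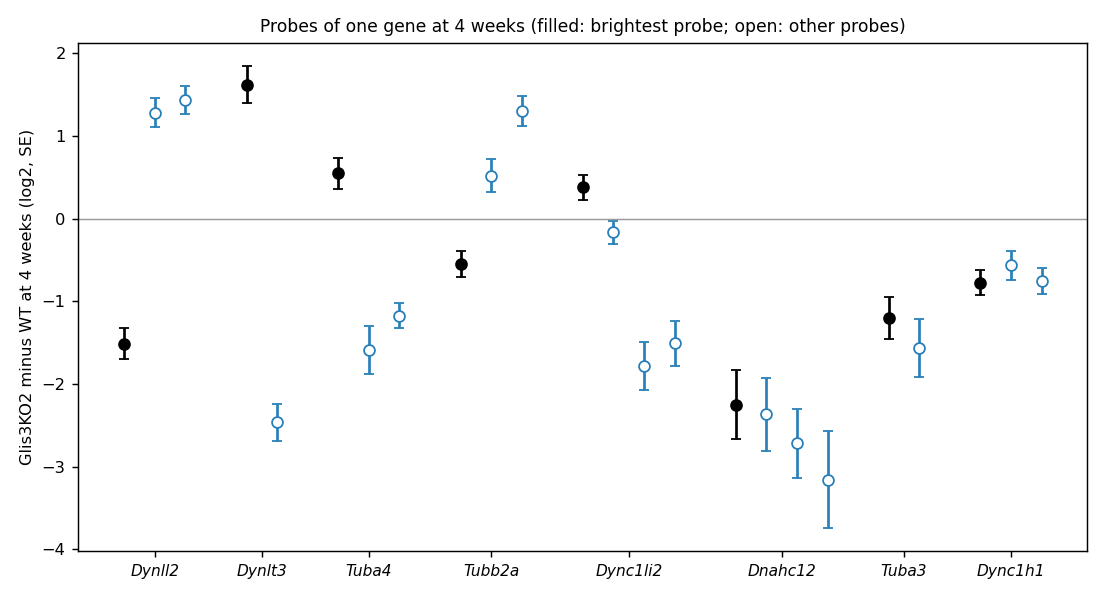
Log2 difference, Glis3KO2 minus WT, at 4 weeks for each probe tested of 8 members, with the SE of the fit. Filled points are the brightest probe of a gene and open points its other probes. Probes of Dynll2, Dynlt3, Tuba4, Tubb2a and Dync1li2 lie on both sides of 0, and those of Dnahc12, Tuba3 and Dync1h1 on the same side.

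Promoters of 47 members were found in the RefSeq table (GRCm38.p6), and the 250 bases before the start were searched on both strands, since axonemal and IFT members fell together. The X-box, the motif bound by RFX factors, was searched as its palindromic consensus with at most 2 mismatches. It was present in 4 of 25 promoters of axonemal dyneins, tektins, dynein 2 and IFT (16%), in 1 of 22 other members (4.55%) and in 8.24% of 27025 genes. The sequence TGACGTCA, the full cAMP response element (CRE), was present in 3 of 47 members (6.38%) and in 1.77% of genes, and CCAAT in 22 of 47 members (46.8%) and in 37.5% of genes. GTTGCC, part of the X-box, was found in 25.5% of members and 11.8% of genes, and in 24% of axonemal dynein, tektin, dynein 2 and IFT promoters against 27.3% of other members. The closest match to the searched form was that of Ift57, which also holds the CRE. It has 1 mismatch when read on the strand opposite to the printed one. Tekt1 shows a match with 2 mismatches next to its start. The capitals mark those matches. In Ift57 a more closely spaced pair of such arms, gttgcctggtaac, follows in lower case and was not searched for.
Ift57 promoter, chr16:49699044-49699293, plus strand: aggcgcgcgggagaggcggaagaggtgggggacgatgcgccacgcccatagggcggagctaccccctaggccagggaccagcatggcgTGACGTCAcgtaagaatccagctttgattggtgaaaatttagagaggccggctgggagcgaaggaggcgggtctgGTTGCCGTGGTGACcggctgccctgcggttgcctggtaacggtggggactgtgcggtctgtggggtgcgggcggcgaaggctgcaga
Tekt1 promoter, chr11:72361883-72362132, minus strand: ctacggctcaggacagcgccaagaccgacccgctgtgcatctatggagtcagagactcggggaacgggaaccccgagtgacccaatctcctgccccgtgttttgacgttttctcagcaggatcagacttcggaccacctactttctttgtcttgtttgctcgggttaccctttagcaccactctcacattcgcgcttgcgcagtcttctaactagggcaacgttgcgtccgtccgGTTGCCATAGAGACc
Ift57 was at 2.11, 2.05 and 2.51 in Glis3KO2 and at 3.39, 3.37 and 3.44 in WT at 4 weeks (2.26-fold lower, adjusted p = 0.00127), with separate groups. A motif match is a description of these letters, and binding was not measured.

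Genes that work beside the members were taken from lists of known pathway genes. At 4 weeks 34.1% of all genes tested were lower and 35.1% were higher. Of the 13 genes for assembly and docking of axonemal dyneins all fell, among them the docking factor Ccdc63 (-2.63) and the assembly factor Ccdc103 (-2.39). Of 16 genes of radial spokes, the central pair and the nexin link 15 fell, led by Spag17 (-2.70), and Rsph4a (-0.79, adjusted p = 0.254) was not called. Among 19 further IFT and BBSome genes 15 fell and none rose, with Bbs5 (-1.92) and Ift22 (-1.93) as the largest falls. The list of dynactin and regulators of cytoplasmic dynein had 5 lower and 7 higher of 17, near the shares over all genes. Its cargo adaptors Bicd2 and Hook2 were at 0.74 and -1.42, the dynein 1 regulator Pafah1b1 (Lis1) at 1.46 and the dynactin subunit Actr10 at -1.26. The largest rise of that list was that of Bicd1 (2.42). Of 20 genes for tubulin folding, the gamma-tubulin complex and tubulin modification 11 fell and 7 rose, the rises being near the share over all genes. The glycylase Ttll8 (-3.02) and the deacetylase Hdac6 (2.34) stood at the ends of that list. Of 9 transcription factors known from ciliary or spermatid gene expression 8 fell, including Rfx2 (-1.98), Rfx3 (-2.81), Foxj1 (-1.84) and Crem (-2.21), while Rfx1 (-0.21, adjusted p = 0.225) was not called.

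Markers of cell types moved with these groups at 4 weeks. All 7 round spermatid markers fell, and their summed linear level was 59.5 to 157 in Glis3KO2, against 572 to 841 in WT. All 5 pachytene spermatocyte markers fell (126 to 224 in Glis3KO2, 298 to 336 in WT), and 3 of 4 pan germ cell markers fell (74.2 to 129 against 217 to 227 in WT). Of 7 Sertoli markers 6 rose (50.7 to 65.8 in Glis3KO2, 24.1 to 25.8 in WT). Of 5 Leydig markers 2 fell and 1 rose, 3 of 4 immune markers rose, and none of 3 red cell markers was called. A list of genes of multiciliated and duct epithelium had 3 lower and 2 higher of 6 tested, and its summed level on Glis3KO2 replicates 1, 2 and 3 was 13.2, 4.93 and 3.35, with WT at 1.38 to 2.52. Krt18, a keratin of simple epithelia, made most of the sum on the Glis3KO2 arrays, and Lcn8 was not well above background on any array. Crisp1, of the same list, was uneven between WT arrays (-0.18, -3.05 and -5.19) and at -6.80, -6.28 and -8.17 in Glis3KO2. The part of these cell types in the members' differences was not tested.

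At 1 week, before spermatids are present in mice, the second genotype comparison found few members changed. Of 55 tested members 6 were lower and 1 was higher in Glis3KO2, against 6.14% of all genes lower and 3.9% higher (10% in either direction). The 6 lower members were the axonemal heavy chains Dnahc1, Dnahc8, Dnahc9, Dnahc10 and Dnahc11 and the tektin Tekt1, and the higher member was Tubb3. On the brightest probes no IFT, cytoplasmic dynein or shared light chain member was called, and the median log2 difference of the 58 members was 0.01. Ift80 probe 2, well above background on all 1-week arrays, was lower (log2 -1.33, adjusted p = 0.00533 over all probes), against 0.13 for the brightest Ift80 probe.

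Dnahc8 was at -4.19, -3.91, -4.55 and -4.57 on the 1-week Glis3KO2 arrays, against -2.55, -2.78, -2.92 and -2.18 on the WT arrays, 3.24-fold lower (log2 -1.70, SE 0.21, adjusted p = 0.00644). Dnahc11 was at -6.38, -6.86, -7.36 and -6.88 in Glis3KO2, 3 of these 4 arrays being well above background, and at -5.47, -5.77, -5.74 and -5.19 in WT (2.51-fold lower, adjusted p = 0.0189). Both genes had separate groups at signals far below the 75th percentile of the arrays. Dnahc10 was not well above background on any Glis3KO2 array (-8.77, -9.59, -8.80 and -9.23), whereas it was on all WT arrays (-6.47, -7.04, -6.90 and -6.52), so it was at least 1.16-fold lower (adjusted p = 0.00328). This bound sets the WT mean against the lowest signal above background on each Glis3KO2 array. Tekt1 was at -2.30, -3.11, -3.19 and -3.60 in Glis3KO2 and at -1.96, -2.01, -1.91 and -1.40 in WT (2.34-fold lower, adjusted p = 0.0389). Dnahc1 and Dnahc9, added after their values were seen, had log2 differences of -0.72 (adjusted p = 0.0392) and -1.11 (adjusted p = 0.0441). Probe 2 of each, well above background on all 1-week arrays, was not called. It gave -0.32 for Dnahc1 (adjusted p = 0.232 over all probes) and -0.37 for Dnahc9 (adjusted p = 0.304). Tubb3 was at 2.12, 2.12, 2.18 and 2.26 in Glis3KO2, against 1.61, 1.62, 1.69 and 1.57 in WT (1.46-fold higher, log2 0.55, SE 0.10, adjusted p = 0.0203).

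The 5 members called at 1 week under the naming rule each lost the call in at least 1 alternative setting, and 6 of 28 at 4 weeks lost it or changed direction. With slide as a block Dnahc8 and Dnahc10 were the only members called, each with the sign it had without the block (replicate 4 of Glis3KO2, alone on its slide, adds nothing to that contrast), and without WT replicate 1 the same pair was called. With normexp background correction Dnahc10 had a 1-week log2 difference of -0.04 (limma adjusted p = 0.931), and on slide 1 alone no member was called. All 6 lower members were in the dimmer part of the array. With tested genes cut into 4 equal classes by mean signal, Dnahc10 and Dnahc11 were in the dimmest, where the median log2 difference of all genes was -0.61, and Dnahc1, Dnahc8, Dnahc9 and Tekt1 in the next, where it was -0.20. In the brightest class the median was 0.23. Median scaling raised the median of all genes at this age by 0.26 and gave 5 lower and 7 higher members. The part of brightness in these calls was not tested.

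At 1 week the broad isotypes Tuba6 (0.61, adjusted p = 0.0573) and Tuba2 (0.45, adjusted p = 0.0837) were not called, nor was Tuba8 (-0.92, adjusted p = 0.0571). Dynlrb2 was at -2.42, -4.05, -3.33 and -3.97 in Glis3KO2 and at -3.39, -3.83, -3.63 and -3.17 in WT, with overlap (adjusted p = 0.907), and Dnali1 overlapped too (log2 0.21, adjusted p = 0.497). Dnahc6 and Tekt3 were not well above background on any 1-week array. Pathway lists had 2 of 11 dynein assembly genes, 2 of 13 spoke and central pair genes and 2 of 20 tubulin folding and modification genes lower and none higher. Of 8 ciliary or spermatid transcription factors tested 1 was lower. None of 19 further IFT and BBSome genes and none of 17 genes of dynactin and dynein regulators was called. Over all genes tested 6.14% were lower and 3.9% were higher. The summed level of pan germ cell markers was 24.6, 33.9, 34.6 and 8.47 on Glis3KO2 replicates 1 to 4, against 35.4 to 50.8 in WT, with none of 4 called. Among pachytene markers Ldhc (-3.33, adjusted p = 0.00582) and Piwil1 (-3.06, adjusted p = 0.0325) were lower and Pgk2 (1.71, adjusted p = 0.0399) was higher, and none of 6 round spermatid markers was called. The Sertoli marker Amh (0.97, adjusted p = 0.047), 3 of 5 Leydig and 3 of 4 immune markers were higher. The summed level of the duct and multiciliated list was 8.55, 2.73, 4.07 and 6.56 in Glis3KO2 and 2.12 to 3.05 in WT. Of that list, Crisp1 was above background only on Glis3KO2 replicates 1 and 4 (-0.69 and -0.004). The part of these cells was not tested.

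**Figure D4:**
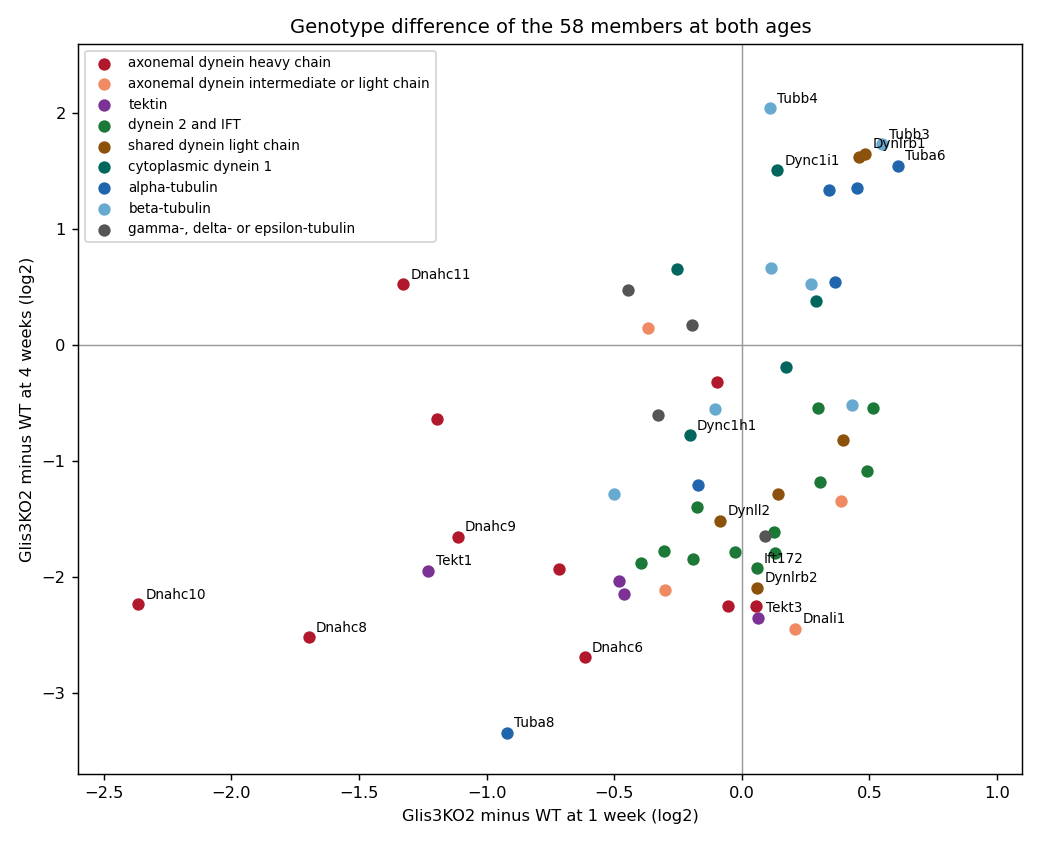
Log2 difference, Glis3KO2 minus WT, of the 58 members at 1 week (horizontal axis) and 4 weeks (vertical axis), coloured by role, with untested members included. Axonemal, tektin and IFT members lie between -2.69 and 0.53 at 4 weeks, while at 1 week the heavy chains spread from -2.37 to 0.06 and all IFT members stay between -0.40 and 0.51.

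How members differ between 4 weeks and 1 week was compared within each genotype. In Glis3KO2 25 of 57 tested members were higher and 11 lower at 4 weeks, where 23.8% of all genes were higher and 28.8% lower (52.6% in either direction). In WT 37 of 57 were higher and 16 lower, with 31.3% of all genes higher and 49.7% lower (81% in either direction). Axonemal members had the largest median rise of the role groups in both genotypes, with 14 of 18 higher in Glis3KO2 (median log2 difference 3.15) and 15 of 18 higher in WT (median 5.20). Slide and age cannot be told apart in these values.

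Dnali1 was 129-fold higher at 4 weeks than at 1 week in Glis3KO2 (mean 2.47 ± 0.81, n = 3, against -4.53 ± 0.39, n = 4, SD) and 811-fold higher in WT (4.92 ± 0.16, n = 3, against -4.74 ± 0.26, n = 4). Tekt1 was 227-fold higher in Glis3KO2 and 374-fold higher in WT, and Dnahc8 154-fold and 273-fold. Dynlrb2 was 94.1-fold higher in Glis3KO2 and 420-fold higher in WT. Where no 1-week array was well above background, the fold can only be bounded from below. It was at least 33.5-fold for Dnahc6 and at least 47.8-fold for Tekt3 in Glis3KO2, and at least 262-fold and 299-fold in WT. In Glis3KO2 it was at least 12.1-fold for Dnahc10. The largest adjusted p of the values in this paragraph was 5.14e-05.

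IFT members rose less with age. All 12 dynein 2 and IFT members were higher at 4 weeks in WT (median 2.29), and 7 of 12 were higher in Glis3KO2 (median 0.90). Ift172 was 2.45-fold higher in Glis3KO2 (adjusted p = 0.00782) and 9.69-fold higher in WT (adjusted p = 5.99e-07). Tubulins went mostly the other way, with 10 of 17 lower and 1 higher in Glis3KO2 and 11 lower and 4 higher in WT. Over all genes tested, 28.8% were lower and 23.8% higher in Glis3KO2, and 49.7% lower and 31.3% higher in WT. Tubb4 was 2.17-fold lower at 4 weeks in Glis3KO2 and 8.32-fold lower in WT, and Tuba6 was 2.19-fold and 4.19-fold lower. Tuba8 was the one tubulin higher with age in Glis3KO2, 22.9-fold there and 123-fold in WT. Dync1i1 was 1.83-fold higher at 4 weeks in Glis3KO2 (adjusted p = 0.007) and 1.41-fold lower in WT (adjusted p = 0.000697).

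**Figure D5:**
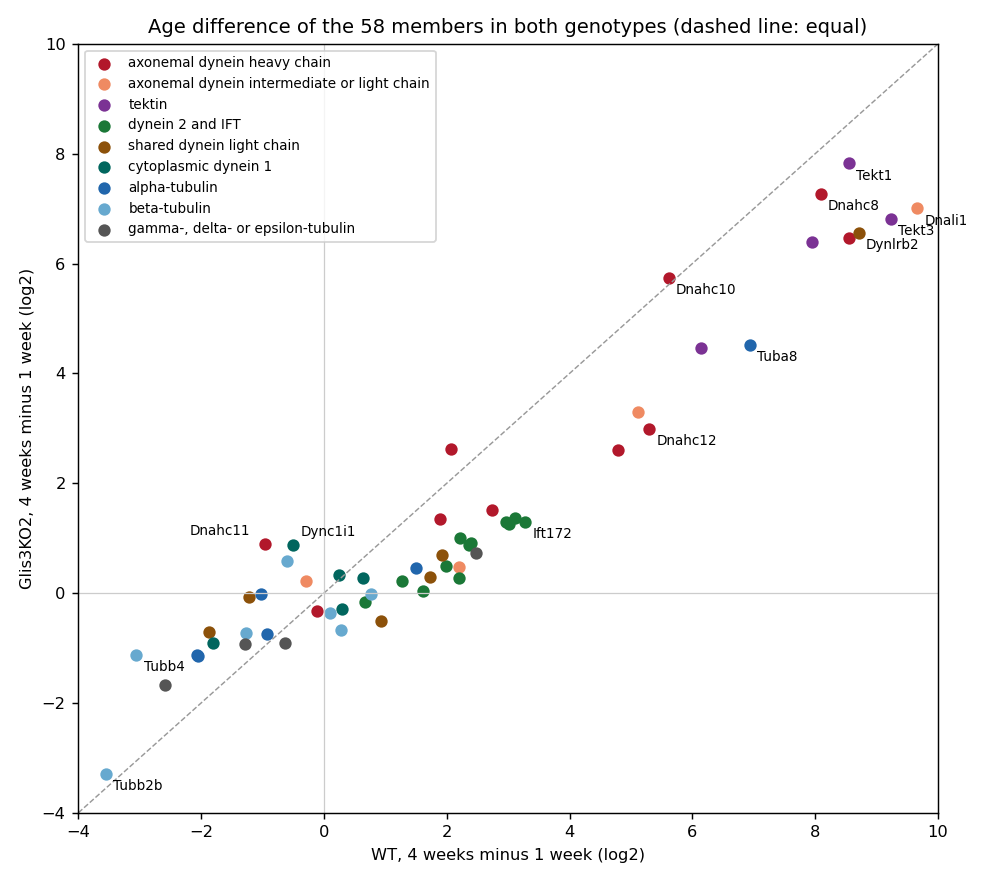
Log2 difference between 4 weeks and 1 week of the 58 members in Glis3KO2 (vertical axis) and WT (horizontal axis), coloured by role, with untested members included. The dashed line marks equal differences. Tektins, most axonemal dyneins and all IFT members lie below the line on the side of higher signal at 4 weeks in WT, and several tubulins lie above it on the side of lower signal.

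The difference of the genotype effects between ages, 4-week effect minus 1-week effect in 1 fit of all 14 arrays, tests whether the genotypes part with age. It was negative in 31 and positive in 12 of 57 tested members, against 21.6% and 29.3% of all genes (51% in either direction). All 12 dynein 2 and IFT members were called lower, from -1.99 (Ift172, SE 0.35, adjusted p = 0.000662) to -0.84 (Ift52, SE 0.16, adjusted p = 0.000987). Of the axonemal members 10 were called lower and 1, Dnahc11, higher. The Dnahc11 call was lost with quantile normalization (1.23, limma adjusted p = 0.0701) and with normexp (0.59, adjusted p = 0.22), and its 4-week difference alone was not called. Dnali1 had a difference of -2.66 (SE 0.45, adjusted p = 0.000501) and Dnahc12 of -2.31 (SE 0.43, adjusted p = 0.000819). The Dnahc12 value is that of its brightest probe, on chromosome 1, and may not be that of Dnah12. For Dnahc8 (-0.82, SE 0.52, adjusted p = 0.204), Dnahc9 (-0.54, SE 0.37, adjusted p = 0.248) and Tekt1 (-0.72, SE 0.50, adjusted p = 0.252), which were already lower at 1 week, the effects at the ages were not shown to differ. Dnahc10, also lower at both ages, was not called either, but with normexp background correction its difference was -1.74 (limma adjusted p = 0.000786). Among tubulins and cytoplasmic dynein 1 the most positive differences were those of Tubb4 (1.94, SE 0.22, adjusted p = 5.62e-05) and Dync1i1 (1.37, SE 0.20, adjusted p = 0.000196). Median scaling lowered the median of all genes in this comparison by 0.34 and left 5 members with a positive call, Dnahc11, Dync1i1, Dynlt3, Tubb3 and Tubb4.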

How the data were processed

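RNA of 14 testis samples was hybridised to Agilent whole mouse genome arrays. Agilent Feature Extraction 9.5 is named in the submitters' processing notes. The deposited intensity had its background subtracted and was detrended within the array, per the file headers, and the deposited flag columns (0 or 1) mark other spot properties. The authors' deposited value table equals this intensity spot by spot, so it holds no step between arrays. The intensity was put on the log2 scale, non-uniform spots were left out, each probe's spots were averaged, and the array's 75th percentile was subtracted. Names came from accession (45 members), symbol (4) or synonym (8) in RefSeq (GRCm38.p6), and 1 was kept. limma 3.58.1 (R 4.3.3) was fitted over all 27962 gene names, filtered as stated, and tested on simulated data. Figures used Python 3.11.15 and matplotlib 3.10.9. No saturated member spot was found.

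The members, lists and tests were chosen with earlier results of these data known. Named with all arrays are, per role, the 2 largest falls and 2 largest rises at 4 weeks, called members first, up to 4 called per direction at 1 week and the 4 largest differences between ages (32 members); other members and list genes were named after their values were seen. Alternatives were other scalings, normexp (offset 50), filters, probe means, moderation, blocks and leaving out arrays; single slides and probe-level fits were added after seeing the data. An array design limits precision by the number of arrays, and gene structure around mm7 probe positions was not used here. 1 probe sequence is not reported here.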

Additional observations from a re-analysis of the deposited data

Results flagged for a closer look

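For 24 members named by rule, the genotype difference at 4 weeks departed from that at 1 week in a test of the difference itself (limma, 1 fit of all 14 arrays; log2, 4-week effect minus 1-week effect). Axonemal dyneins and tektins gave -2.66 (Dnali1), -2.42 (Tekt3), -2.31 (Dnahc12), -2.08 (Dnahc6), -1.81 (Dnaic1), -1.69 (Tekt2) and 1.85 (Dnahc11). Dnahc6 and Tekt3 were not well above background at 1 week, so their 1-week part rests on background signal. The Dnahc12 value is that of its probe on chromosome 1, and may not be that of Dnah12. IFT members gave -1.99 (Ift172) and -1.48 (Ift74). Light chains gave -2.16 (Dynlrb2), -1.43 (Dynll2), 1.16 (Dynlt3) and 1.17 (Dynlrb1), and cytoplasmic dynein 1 gave 1.37 (Dync1i1) and 0.91 (Dync1li1). Among tubulins the values were -2.43 (Tuba8), -1.74 (Tubd1), -1.03 (Tuba3) and -0.78 (Tubb2c) on the negative side, and 1.94 (Tubb4), 1.19 (Tubb3), 0.94 (Tuba6), 0.92 (Tubg2) and 0.90 (Tuba2) on the positive side. The values of Dynll2 and Dynlt3 are those of their brightest probes, and other probes of these genes went the opposite way at 4 weeks. Of the 24 members 12 kept the call and the direction in every setting run, and 12 lost or reversed it in at least 1. Tubg2 lost the call in 15 of 24 alternative settings and Tubb2c in 14. Ages lie on different slides.

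In 5 of 64 groups of 4 arrays, 1 array lay far from the others, and chance gives about 1 in 20. Dync1h1 was at 3.59 on 1-week Glis3KO2 replicate 3, with the others at 4.27 to 4.35, and at 4.52 on 1-week WT replicate 4, with the others at 4.23 to 4.28. WT replicate 4 was also apart for Tekt1 (-1.40, others -2.01 to -1.91) and Tubd1 (1.00, others 0.77 to 0.78). Ift74 was at 0.10 on 1-week Glis3KO2 replicate 4, with the others at 0.36 to 0.41.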

How the results depend on the processing

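At 4 weeks leaving out 1 array gave 34 to 38 lower and 9 to 14 higher members, 14 to 15 axonemal members lower, and 1 to 3 subunits of cytoplasmic dynein 1 higher (1 without WT replicate 1 or 2 or Glis3KO2 replicate 1 or 2). Some same-numbered samples also share a slide. Same-numbered samples did not deviate together (correlations -0.34 to 0.16), which does not exclude a pairing by number. With that number as a block 36 members were lower and 10 higher, and 1 subunit of cytoplasmic dynein 1 was higher, as with median scaling (replicate block and scaling run separately). Lower subunits numbered 0 with quantile normalization and 3 with the mean of all probes. At 1 week lower members numbered 2 with normexp or a slide block, 3 with no filter or the replicate block, 0 on slide 1 alone, and 2 to 7 without 1 array (2 without WT replicate 1, 3 without WT replicate 2, WT replicate 3 or Glis3KO2 replicate 4). Higher members numbered 7 with median scaling, 2 with a filter on every array or 1 fit of 14 arrays, 3 with an intensity trend, 0 with either block or slide 1 alone, and 0 to 3 without 1 array (0 without WT replicate 1, 2 or 3 or Glis3KO2 replicate 1, 3 without Glis3KO2 replicate 2).

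Over all genes at 1 week, 1392 lower and 885 higher became 438 and 64 with a slide block, 330 and 61 with the replicate block, 751 and 207 with no filter, 2305 and 1560 in 1 fit of 14 arrays, and 0 and 0 on slide 1 alone. Higher genes numbered 2886 (1013 lower) with median scaling, 1442 with quantile normalization, 1400 with a filter on every array and 1995 with an intensity trend. Leaving out 1 array gave 290 to 2602 lower and 77 to 1188 higher genes.

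For the difference between ages, median scaling left 5 higher members, and turned 5136 lower and 6974 higher genes into 6536 and 4750. With the mean of all probes signs turned for Dynll2 (0.40 at 4 weeks, 0.57 for the difference), Dynlt3 (-0.42 and -0.70), Tubb2a (0.42 at 4 weeks) and Tube1 (0.95 for the difference), and normexp turned the difference of Dnahc10 (-1.74). Of 28 named members called at 4 weeks, 22 kept the call and the direction in every setting run. The cause of these changes was not tested. Dim probes limit the 1-week values.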
